A study of Homo sapiens with 18 samples.

Results

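KO1.5 and KO1.4 are lines of the human melanoma cell line SKmel147 in which ARID2 was targeted by CRISPR, and their RNA was compared directly, without any control library in the test. The comparison was defined by library name: both KO1.5 libraries (R1 and R2) against both KO1.4 libraries (R1 and R2), which are 4 of the 10 SKmel147 libraries and 4 of the 18 libraries of the series. SKmel147 was derived from a metastatic melanoma with an NRAS mutation, and all lines were grown in DMEM with 10% serum. KO1.5, KO1.4, KO3.20 (another ARID2 KO line) and the transduced control NT carried a lentiviral Cas9 together with a second vector for the guide, both stably integrated, whereas the line Par carried no construct. KO1.5 and KO1.4 thus share cell line, target gene and vectors. Their shared first digit may mark a common guide, but the labels do not say so, and guide sequences are not used here. Clonal or pooled origin of each line is not stated either, nor whether R1 and R2 were grown apart, so p-values measure the spread of the 4 libraries only, and that spread may be technical. With 1 line on each side, anything that set the lines apart cannot be told apart from any other difference between them.

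ARID2 belongs to PBAF, one of the SWI/SNF chromatin remodelling complexes, which move nucleosomes at promoters and enhancers, and it helps the complex bind DNA. Lines made with the same editing reagents each descend from the cells that took up the vectors and grew out, and melanoma cells in culture are known to vary in antigen presentation, in differentiation state and in chromosome copy number. A direct comparison of such lines shows how far their RNA differs apart from any contrast with controls.

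The data were raw read counts per gene symbol from polyadenylated RNA. Totals were 33509778 and 27378561 counts in KO1.5 and 21266522 and 29114731 counts in KO1.4. Levels are given as CPM (counts relative to the library total, TMM-scaled over the 10 SKmel147 libraries), in the order R1, R2. Differences are log2 fold changes of KO1.5 over KO1.4 ± SE from edgeR's quasi-likelihood test, so positive values mean higher in KO1.5. A gene was called at a Benjamini-Hochberg adjusted p under 0.05 over all genes tested, written as edgeR adjusted p. Of 10 melanocyte markers, 4 (MITF, SOX10, PAX3 and MC1R) reached 1 CPM, and the markers summed to 182 to 208 CPM in KO1.5 and 227 to 241 CPM in KO1.4. Of 10 lymphocyte markers, 8 were at 0 in all 4 libraries, among them CD3D and CD3E, and no macrophage marker reached 1 CPM. Fibroblast markers summed to 12.7 to 13.3 CPM in KO1.5 and 17.9 to 18.1 CPM in KO1.4, with DCN and DPT at 0. Endothelial markers summed to 8.44 to 10.1 CPM in KO1.5 and 10 to 11.5 CPM in KO1.4. Epithelial markers summed to 104 to 120 CPM in KO1.5 and 100 to 106 CPM in KO1.4, where KRT14, KRT8, KRT18 and CLDN4 reached 1 CPM.

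ARID2 RNA itself was not called between the lines. It was at 55.4 and 46 CPM in KO1.5 and at 56.5 and 57 CPM in KO1.4, while KO3.20 had 39.8 and 46.8 CPM and the 4 libraries of NT and Par had 62.3 to 72.8 CPM. Both KO1.5 libraries lay below both KO1.4 libraries, by a log2 fold change of −0.17 ± 0.12 that missed the threshold (edgeR adjusted p = 0.529). The RNA level does not show whether the protein was lost in either line. Of 28 SWI/SNF subunit genes tested, 1 was called, a share close to the 3.31% of all genes tested that were lower in KO1.5. It was PHF10, another subunit of PBAF. Its levels were 102 and 87.9 CPM in KO1.5 and 136 and 135 CPM in KO1.4 (−0.52 ± 0.11, edgeR adjusted p = 0.00819), and it was not called with all 10 SKmel147 libraries in the fit (edgeR adjusted p = 0.0892).

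Of 17198 genes tested, 1124 (6.54%) were called between KO1.5 and KO1.4. The calls split almost evenly, with 555 genes (3.23% of those tested) higher in KO1.5 and 569 (3.31%) lower, and 390 of the called genes differed by more than 2-fold. The libraries of KO1.5 and KO1.4 overlapped for 4 of the genes called higher and 1 called lower (LENG8, named after its values were seen), and for no other called gene. Among the 16074 genes not called, 9272 overlapped and the rest did not. A call nearly requires such a separation, so the separation adds no support to the calls. In the same test on 4 libraries, the other 9 pairs of SKmel147 lines gave 380 to 1832 called genes. KO1.5 against NT gave 989 (5.72%), KO1.4 against NT gave 1209 (7.01%), KO3.20 against KO1.5 gave 1435 (8.16%) and KO3.20 against KO1.4 gave 1213 (7%). Against Par, KO1.5 gave 1410 (8.08%), KO1.4 gave 1476 (8.64%) and KO3.20 gave 1832 (10.4%), and KO3.20 against NT gave 1684 (9.64%). The 380 calls (2.19%) were between NT and Par. These pairs share lines, so the counts are given side by side without a test between them. The number called for KO1.5 against KO1.4 depended on single libraries. It was 428 without KO1.4 R1, 506 without KO1.4 R2 and 3029 without KO1.5 R2, and 399 when all 10 SKmel147 libraries set the spread, 395 of them among the 1124. In that fit of all 10 libraries the order of the pairs was different, with 1702 calls for NT against Par.

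**Figure D1:**
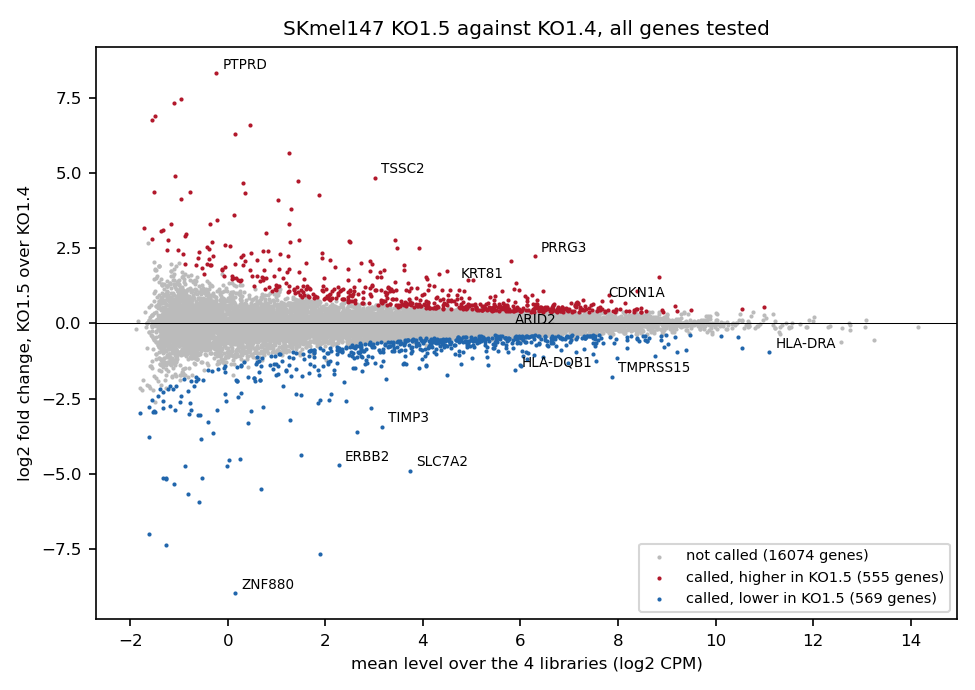
Each point is 1 of 17198 genes, with its mean level over the 4 libraries (log2 CPM, horizontal) and its log2 fold change of KO1.5 over KO1.4 (vertical). The 555 genes called higher in KO1.5 are red and the 569 called lower are blue. SLC7A2 and TSSC2 stand far from 0, while ARID2 lies among the grey genes that were not called.

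Several of the genes with the largest differences were low in KO1.5 alone. SLC7A2, a transporter of arginine and lysine, had 0.977 and 0.77 CPM in KO1.5 and 26.7 and 25.6 CPM in KO1.4. KO1.5 lay far below each of the other 6 libraries, which had 12.7 to 44.9 CPM (−4.89 ± 0.20, edgeR adjusted p = 2.85e-11). TIMP3, a secreted inhibitor of metalloproteases, had 1.63 and 1.43 CPM in KO1.5 and 17.1 and 16 CPM in KO1.4. KO1.5 was again below every other library, since KO3.20 had 66.9 and 67 CPM, NT 9.16 and 8.61 CPM and Par 23.5 and 30.8 CPM (−3.43 ± 0.20, edgeR adjusted p = 3.54e-09). The receptor tyrosine kinase ERBB2 had 0.237 and 0.513 CPM in KO1.5 and 10.3 and 8.8 CPM in KO1.4, with 2.29 to 18.3 CPM in the other 6 libraries (−4.71 ± 0.31, edgeR adjusted p = 1.42e-08). The collagen gene COL5A2 had 2.28 and 1.54 CPM in KO1.5 and 15 and 12.2 CPM in KO1.4 (−2.82 ± 0.22, edgeR adjusted p = 1.34e-07). It was at 11.2 to 34.2 CPM elsewhere, so KO1.5 was the line out of range here too. EMC10, a subunit of a complex that inserts membrane proteins into the endoplasmic reticulum, was at 3.82 and 4.47 CPM in KO1.5 and 15.5 and 14.2 CPM in KO1.4 (−1.85 ± 0.18). The adhesion molecule CADM1 was at 11.9 and 9.49 CPM in KO1.5 and 34.4 and 35.1 CPM in KO1.4 (−1.70 ± 0.15). For both, KO1.5 lay below all other libraries.

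Other genes were low in KO1.4 alone, or shared their low or high level with further lines. ZNF788, annotated as a transcribed zinc finger pseudogene, had 19.7 and 17.1 CPM in KO1.5 and 3.26 and 3.16 CPM in KO1.4 (2.51 ± 0.18, edgeR adjusted p = 4.83e-08). Its relative ZNF347 had 20.8 and 16.4 CPM in KO1.5 and 5.76 and 5.09 CPM in KO1.4 (1.78 ± 0.18, edgeR adjusted p = 2.46e-06). STOM, which encodes the membrane protein stomatin, had 30.4 and 29.7 CPM in KO1.5 and 9.16 and 10 CPM in KO1.4 (1.63 ± 0.14, edgeR adjusted p = 4.94e-07). For these genes the 6 remaining libraries stood with KO1.5, at 15.4 to 21.7 CPM, 15.8 to 22.3 CPM and 19.4 to 34.4 CPM in turn. TSSC2, a transcribed pseudogene, had 13.7 and 16.6 CPM in KO1.5 and 0.567 and 0.481 CPM in KO1.4 (4.85 ± 0.26, edgeR adjusted p = 1.05e-09). KO3.20 shared the high level, with 10.3 and 9.2 CPM, and NT and Par the low one, with 0.305 to 0.817 CPM. TMPRSS15, which encodes the intestinal protease enteropeptidase, had 120 and 93.2 CPM in KO1.5 and 343 and 379 CPM in KO1.4 (−1.77 ± 0.13, edgeR adjusted p = 4.82e-08). It was at 130 to 200 CPM in KO3.20 and NT but at 2.05 and 3.57 CPM in Par, so the construct-free line was far below both KO lines.

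The hair keratin genes KRT81 and KRT86 and the pseudogene KRT121P, neighbours of near-identical sequence whose reads cannot be assigned with certainty, were higher in KO1.5. KRT81 had 77.2 and 104 CPM in KO1.5 and 20.1 and 22.4 CPM in KO1.4 (2.08 ± 0.14, edgeR adjusted p = 3.82e-08). Both lines lay inside a wide range, since Par had 144 and 126 CPM, NT 16.6 and 16.9 CPM and KO3.20 3.55 and 2.66 CPM. KRT86 differed by 2.52 ± 0.18 and KRT121P by 2.78 ± 0.22. Further genes with large differences were GFRA1, the co-receptor for GDNF (1.96 ± 0.17), and the matrix protein gene MATN2 (1.70 ± 0.19), both higher. Lower were the actin-bundling protein gene LCP1 (−1.43 ± 0.12), the growth factor gene TGFB1 (−1.42 ± 0.15), the complement factor gene CFI (−1.40 ± 0.21), the Notch co-activator gene MAML3 (−1.39 ± 0.15), the microtubule-associated gene MTUS1 (−1.50 ± 0.15) and STC1, which encodes stanniocalcin 1 (−1.38 ± 0.12). LCP1 had 35.2 and 35 CPM in KO1.5 and 91 and 96.6 CPM in KO1.4. The other lines lay on both sides, with 21.4 and 24.5 CPM in KO3.20 and 117 and 97.3 CPM in NT.

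PRRG3 and AC009501.4, both among the 12 largest differences higher in KO1.5, are exceptions. PRRG3 had 237 and 20.6 CPM in KO1.5 and 20.2 and 34.1 CPM in KO1.4 (2.23 ± 0.57, edgeR adjusted p = 0.0227). KO1.5 R1 alone was high, and KO1.5 R2 fell between the KO1.4 libraries. KO3.20 R2 and NT R1 were also high, at 184 and 167 CPM, while their partner libraries had 21.8 and 16 CPM. AC009501.4, and RP11-458N5.1 and COL6A3, the last pair picked out after their values were seen, had the same 3 high libraries. Without KO1.5 R1 all 4 turned round, to −0.41 for PRRG3, −0.45 for AC009501.4, −0.48 for RP11-458N5.1 and −0.26 for COL6A3. For these genes R1 and R2 of KO1.5 lay farther apart than the lines did once KO1.5 R1 was left out.

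**Figure D2:**
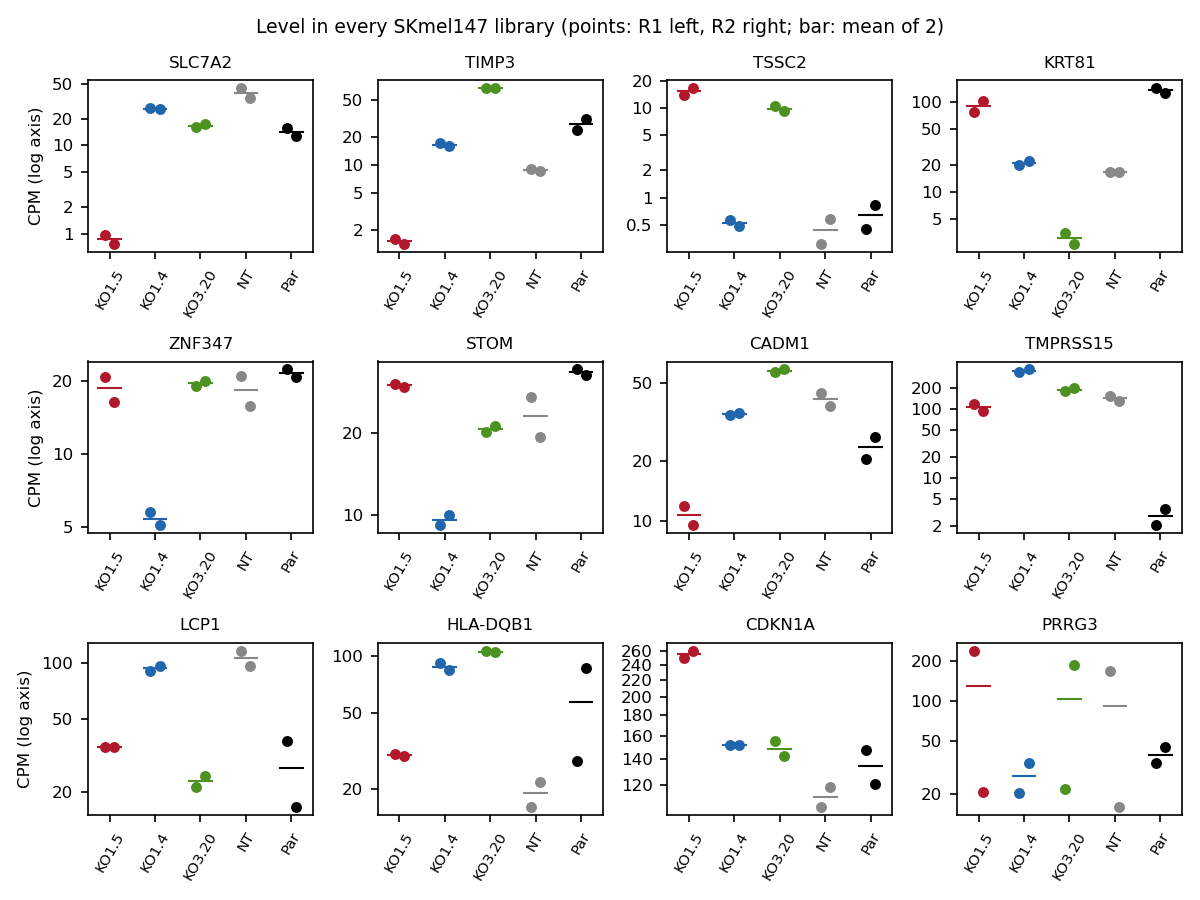
Level of 12 named genes in all 10 SKmel147 libraries (CPM, log axis), with 1 point per library and a bar at the mean of each line. SLC7A2 and TIMP3 were lowest in KO1.5, ZNF347 and STOM were lowest in KO1.4, and PRRG3 was high in only 1 library each of KO1.5, KO3.20 and NT.

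Over all called genes, the KO1.5 libraries alone lay outside the range of the 6 libraries of KO3.20, NT and Par for 392 genes (34.9% of those called, against 10.1% of all genes tested). The KO1.4 libraries alone did so for 228 (20.3%, against 6.48%). For 42 called genes (3.74%, against 0.285% of all genes tested) both lines lay outside on opposite sides. For 39 (3.47%, against 3.16%) both lay outside on the same side, a share close to that of all genes tested. The remaining 423 called genes (37.6%, against 80% of those tested) had neither line wholly outside. Called genes were chosen because the lines differ, which by itself favours a line outside this range, so these shares only describe the calls.

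A few genes were without counts in KO1.5 or in KO1.4. ZNF880, a zinc finger gene on chromosome 19 named after its values were seen, had no count in either KO1.5 library and 45 and 68 counts (2.12 and 2.34 CPM) in KO1.4. Measured against a floor of 3 counts over both libraries it was at least 45.8-fold lower in KO1.5 (edgeR adjusted p = 2.2e-06), and KO3.20, NT and Par had 2.92 to 4.95 CPM. PTPRD, a receptor tyrosine phosphatase that is often deleted in melanoma, had 50 and 38 counts (1.48 and 1.39 CPM) in KO1.5 and none in KO1.4, at least 24.1-fold higher in KO1.5 (edgeR adjusted p = 2.66e-05). It was low in all 3 KO lines, since KO3.20 had 4.86 and 5.25 CPM and NT and Par had 16.1 to 24.9 CPM. The cancer-testis antigen gene CTAG2 had no count in KO1.5 and 10 and 28 counts in KO1.4, at least 15.4-fold lower in KO1.5 (edgeR adjusted p = 0.000647). KO1.5 was not alone here, since CTAG2 was at 0 in both Par libraries and at 0.0611 and 0 CPM in KO3.20. NT had 0.475 and 0.396 CPM. In all, 3 called genes had no count in KO1.5 and 5 had none in KO1.4, and no such gene reached 5 CPM in the other line. The floors cover counting error only.

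Among the 31 pathway lists, the HLA class II list had the largest share of members called. HLA class II molecules display peptides to CD4 T cells. Their alpha and beta chains, the chaperone CD74 and the peptide exchange factors HLA-DM and HLA-DO are switched on together by the co-activator CIITA, and melanoma cells can express them. Of 13 class II pathway genes tested, 12 were lower in KO1.5 and none higher, with a median log2 fold change of −0.98, against −0.01 over all genes tested and 3.31% of them lower. CIITA had 41.2 and 44.8 CPM in KO1.5 and 102 and 93.1 CPM in KO1.4 (−1.19 ± 0.12, edgeR adjusted p = 2.26e-06). Both KO1.5 libraries were below both KO1.4 libraries, and KO3.20 was higher still, at 122 and 116 CPM, while NT had 24.1 and 36.6 CPM. CTSS, the protease that cuts the invariant chain, was the member not called (−0.22).

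The chains and their chaperones were lower in KO1.5 too. HLA-DQB1 had 30.3 and 29.9 CPM in KO1.5 and 92.1 and 84.5 CPM in KO1.4 (−1.56 ± 0.12, edgeR adjusted p = 1.08e-07). HLA-DRA, the shared DR alpha chain, had 1550 and 1450 CPM in KO1.5 and 2940 and 2850 CPM in KO1.4 (−0.96 ± 0.12, edgeR adjusted p = 3.03e-05). HLA-DMB, the beta chain of the exchange factor HLA-DM, had 157 and 157 CPM in KO1.5 and 349 and 339 CPM in KO1.4 (−1.14 ± 0.11, edgeR adjusted p = 1.52e-06). For these 3 genes both KO1.5 libraries lay above both NT libraries and below both KO3.20 libraries. CD74, on chromosome 5, differed by −0.96 ± 0.11 and HLA-DOA by −1.32 ± 0.13, so the members lower in KO1.5 sit on chromosomes 5, 6 and 16. The Par libraries differed from each other on these genes, with 28.1 and 87.2 CPM of HLA-DQB1 and 825 and 1790 CPM of HLA-DRA. When all 10 SKmel147 libraries set the spread, only HLA-DMB of the 12 remained called, 1 gene. HLA-DRB1 and HLA-DRB5 are near-identical in sequence, and reads could be split between them. Among 16 HLA class I pathway genes, HLA-B (−0.82 ± 0.11), HLA-C (−0.41 ± 0.11), HLA-E (−0.41 ± 0.11) and HLA-F (−0.93 ± 0.12) were lower in KO1.5 and none was higher, against 3.31% of all genes tested lower. None of the 4 was called with all 10 libraries in the fit (edgeR adjusted p = 0.287 for HLA-B, 0.521 for HLA-C and 0.18 for HLA-F). Of 21 interferon-stimulated genes, 3 (IFI44L, IFIT3 and IRF1) were lower and none higher, against 3.31% and 3.23% of all genes tested. The DESeq2 Wald test called 0 of the list. With all 10 libraries in the fit none of the 3 was called (edgeR adjusted p = 0.0647, 0.0609 and 0.152 in turn). IFI44L had only 4 and 2 counts in KO1.5 and 11 and 16 counts in KO1.4.

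Class II promoters are known for a shared arrangement of X and Y boxes, the Y box being an inverted CCAAT box. Promoter windows from 250 bases before to 50 bases after the start (RefSeq, GRCh38.p14) were held for 10 of the 12 class II genes lower in KO1.5, and 4 of them are shown, since these genes differed together and lie under a common regulator. CIITA and HLA-DRA were not in the table. Capitals mark matches to AGNAACNGA (X box) and ATTGG (inverted CCAAT box) on either strand, so that AGNAACNGA stands as such or as its reverse complement and ATTGG also as CCAAT.
HLA-DQB1 promoter, chr6:32666608-32666907 (minus strand): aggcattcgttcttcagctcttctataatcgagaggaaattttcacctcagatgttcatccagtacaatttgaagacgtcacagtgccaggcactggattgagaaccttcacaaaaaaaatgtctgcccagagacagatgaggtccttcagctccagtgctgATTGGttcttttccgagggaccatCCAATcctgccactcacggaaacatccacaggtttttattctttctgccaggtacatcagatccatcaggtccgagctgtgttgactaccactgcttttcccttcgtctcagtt
HLA-DMB promoter, chr6:32940979-32941278 (minus strand): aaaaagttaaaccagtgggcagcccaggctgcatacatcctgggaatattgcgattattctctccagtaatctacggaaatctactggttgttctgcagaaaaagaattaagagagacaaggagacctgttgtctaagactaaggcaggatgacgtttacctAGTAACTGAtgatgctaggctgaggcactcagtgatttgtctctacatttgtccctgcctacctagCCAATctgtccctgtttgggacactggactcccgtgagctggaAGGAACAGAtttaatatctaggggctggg
HLA-DOA promoter, chr6:33009542-33009841 (minus strand): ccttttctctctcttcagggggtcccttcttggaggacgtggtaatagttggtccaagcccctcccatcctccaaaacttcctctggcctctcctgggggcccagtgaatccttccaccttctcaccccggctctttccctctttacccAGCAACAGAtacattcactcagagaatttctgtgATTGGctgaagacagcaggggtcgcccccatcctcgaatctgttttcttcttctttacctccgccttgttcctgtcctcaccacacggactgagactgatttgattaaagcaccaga
HLA-DPB1 promoter, chr6:33075740-33076039 (plus strand): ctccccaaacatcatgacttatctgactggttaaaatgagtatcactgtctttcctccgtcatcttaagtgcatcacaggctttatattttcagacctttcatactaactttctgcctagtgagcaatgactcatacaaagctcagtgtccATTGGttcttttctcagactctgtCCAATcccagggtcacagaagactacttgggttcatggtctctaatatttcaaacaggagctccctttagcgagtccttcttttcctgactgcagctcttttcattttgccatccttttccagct

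The X box letters were found in 6 of the 10 windows (60%), against 3.75% of the 10807 promoters of tested genes. The inverted CCAAT letters were in 9 (90%), against 36.4%, and both were in 5 (50%), against 1.48%. The 2 motifs can share no more than an end base, and both were chosen after the sequences had been seen. Both boxes are known from class II promoters, so their excess here describes the gene family and not the difference between the lines. Among promoters of all genes called higher and lower, X box letters were in 3.57% and 6.67%. Inverted CCAAT letters were in 37.8% and 40.3%. The lower set includes the class II genes. A match is a run of letters and not a bound site. A further 4 motifs were searched in all called genes. AP-1 letters (TGANTCA) were in 7.44% of 336 promoters of genes higher in KO1.5, 4.27% of 375 promoters of genes lower in KO1.5 and 5.27% of all tested. TEAD letters (GGAATG) were in 12.2%, 10.7% and 11.1% of the same sets, E-box letters (CACGTG) in 6.85%, 8.27% and 9.5%, and TATA box letters (TATAAA) in 11.3%, 9.87% and 6.55%.

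Targets of p53 formed the largest group higher in KO1.5. The p53 protein answers DNA damage and other stress by switching on genes for cell cycle arrest, repair and death. Of 26 targets tested, 13 were higher in KO1.5 and none lower, with a median log2 fold change of 0.43, against 3.23% of all genes tested higher. CDKN1A, which encodes the cell cycle inhibitor p21, had 251 and 261 CPM in KO1.5 and 152 and 152 CPM in KO1.4 (0.74 ± 0.11, edgeR adjusted p = 0.00018). KO1.5 was above all other SKmel147 libraries, which had 106 to 155 CPM. FAS, a death receptor, had 13.4 and 13.4 CPM in KO1.5 and 6.19 and 6.43 CPM in KO1.4 (1.07 ± 0.17, edgeR adjusted p = 0.000433). MDM2, the ubiquitin ligase that degrades p53, had 259 and 217 CPM in KO1.5 and 156 and 166 CPM in KO1.4 (0.55 ± 0.12, edgeR adjusted p = 0.00554). For both, KO1.5 again lay above every other library. BTG2 (0.84 ± 0.15), RRM2B (0.83 ± 0.13) and TP53INP1 (0.77 ± 0.13) were higher too, the last pair on chromosome 8. Off chromosomes 8, 9 and 19, 11 targets were higher. The count was 5 without KO1.4 R1, 7 without KO1.4 R2 and 2 with all 10 libraries in the fit. None of 32 mitosis genes was called by edgeR's test (5 at an unadjusted p under 0.05) or by the DESeq2 Wald test. With 6.54% of all genes tested called, a list of this size would hold few calls in any case. Of 34 DNA replication genes, 3 (GINS4, LIG1 and POLD1, on chromosomes 8 and 19) were lower, against 3.31% of all genes tested.

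**Figure D3:**
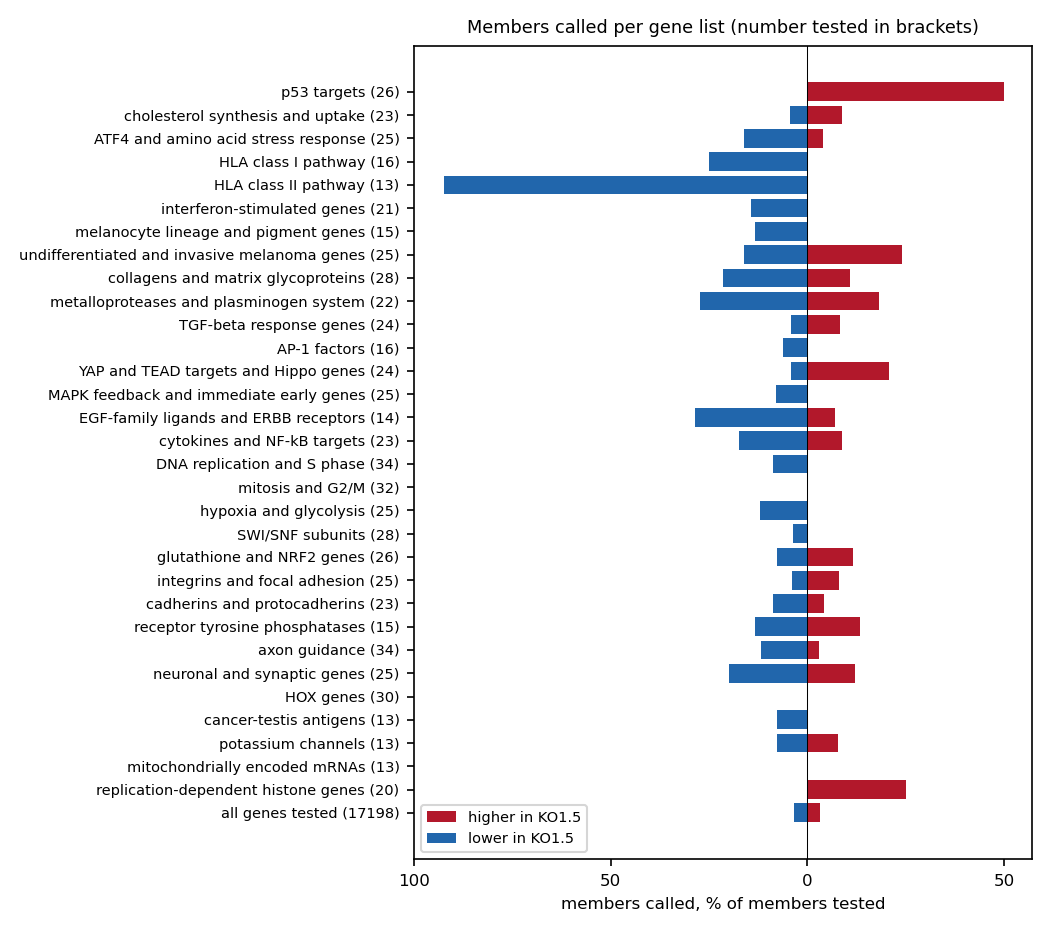
Share of tested members of each gene list called higher (red, to the right) or lower (blue, to the left) in KO1.5, in percent, with the number tested in brackets and all 17198 genes at the bottom. The class II list reaches farthest to the left, with 12 of 13 members, and the p53 list farthest to the right, with 13 of 26.

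Replication-dependent histone genes, whose RNA mostly lacks a poly(A) tail, had 5 of 20 tested members higher in KO1.5 and none lower, against 3.23% and 3.31% of all genes tested. HIST1H2AC had 37.2 and 31.9 CPM in KO1.5 and 10.1 and 10.3 CPM in KO1.4 (1.75 ± 0.14, edgeR adjusted p = 2.16e-07). KO1.5 was above every other library, since KO3.20 came next at 17 and 19 CPM. HIST1H2BK (1.23 ± 0.14) and HIST2H2BE (1.27 ± 0.19) were also higher. Histone genes are alike in sequence, and only polyadenylated RNA was sequenced.

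Genes of the undifferentiated and invasive melanoma state moved both ways, with 6 of 25 higher and 4 lower, against 3.23% and 3.31% of all genes tested. CTGF, a matrix-associated target of YAP, had 174 and 181 CPM in KO1.5 and 104 and 110 CPM in KO1.4 (0.72 ± 0.11, edgeR adjusted p = 0.000283). NGFR, a neural crest receptor, had 70.9 and 88.3 CPM in KO1.5 and 145 and 148 CPM in KO1.4 (−0.89 ± 0.12, edgeR adjusted p = 9.65e-05). The list's median was 0.13. Among 15 melanocyte lineage genes, ERBB3 (−1.49 ± 0.21) and TFAP2A (−0.44 ± 0.13) were lower.

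YAP and TEAD targets and Hippo genes had 5 of 24 members higher and 1 lower, against 3.23% and 3.31% of all genes tested. The same shares apply to the next lists. TGFB2, a growth factor, was higher at 39.4 and 33.1 CPM in KO1.5, against 15.1 and 18 CPM in KO1.4 (1.12 ± 0.14, edgeR adjusted p = 4.6e-05). WWTR1, which encodes TAZ, a co-activator related to YAP, was the member that was lower. It was at 207 and 171 CPM in KO1.5 and 271 and 316 CPM in KO1.4 (−0.64 ± 0.12, edgeR adjusted p = 0.0022). In the list of TGF-beta response genes, 2 of 24 were higher, TGFB2 among them, and TGFB1 was lower. TGFB1 had 9.09 and 9.31 CPM in KO1.5 and 25 and 23.9 CPM in KO1.4, so the ligand genes TGFB1 and TGFB2 differed in opposite directions. Among 25 MAPK feedback and immediate early genes, DUSP4, a phosphatase that acts on MAP kinases (−0.95 ± 0.11), and EGR1 (−0.73 ± 0.18) were lower and none was higher.

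Matrix genes also differed in both directions. The shares to set beside these lists are 3.23% of all genes tested higher and 3.31% lower. Of 28 collagen and matrix glycoprotein genes, 6 were lower, among them COL5A2, THBS2 (−1.12 ± 0.11) and COL18A1 (−0.94 ± 0.14), and 3 higher, one of them COL6A3. Of 22 genes of metalloproteases and the plasminogen system, TIMP3, MMP2 (−0.45 ± 0.11) and MMP14 (−0.49 ± 0.12) were among 6 lower and ADAM12 (0.89 ± 0.12) was among 4 higher. FLNC, which encodes an actin crosslinker, had 75.7 and 96.5 CPM in KO1.5 and 34.6 and 32.3 CPM in KO1.4 (1.35 ± 0.13, edgeR adjusted p = 2.2e-06). KO1.5 was above every other library, since KO3.20 had 39.7 and 33.4 CPM, NT 6.41 and 7.92 CPM and Par 25.4 and 11.2 CPM. In the list of integrins and focal adhesion genes, 2 of 25 were higher and 1 lower, the latter close to the share over all genes tested.

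Among 14 receptors and ligands of the EGF family, 4 were lower in KO1.5 and 1 was higher, against 3.31% and 3.23% of all genes tested. The list's median was −0.12, and 7 of its members had a positive log2 fold change. Besides ERBB2 and ERBB3, the ligand gene AREG was lower (−1.88 ± 0.33), and NRG3 had 0 and 0.0733 CPM in KO1.5 and 1.18 and 1.41 CPM in KO1.4. All 4 genes lower in KO1.5 were also called with all 10 libraries in the fit. In the 6 libraries of KO3.20, NT and Par, NRG3 was at 0 to 0.204 CPM, so KO1.4 was the line out of range. AREG was at 0.756 to 1.52 CPM there, below KO1.4 with 2.36 and 2.58 CPM. ERBB3 was at 17.3 and 16.8 CPM in KO3.20 but at 1.35 to 3.64 CPM in NT and Par. KO1.5, with 2.93 and 3.56 CPM of ERBB3, stood with NT and Par. HBEGF was the member that was higher (0.45 ± 0.12). SLC7A5, a transporter of large neutral amino acids and an ATF4 target, had 106 and 117 CPM in KO1.5 and 278 and 251 CPM in KO1.4 (−1.25 ± 0.11, edgeR adjusted p = 8.33e-07). Its partner SLC3A2 (−0.46 ± 0.12), the serine synthesis enzyme PHGDH (−0.65 ± 0.11) and DDIT4 (−0.97 ± 0.15) were also lower. These were the 4 lower of 25 ATF4 pathway genes tested, and 1, ALDH1L2, was higher. The shares over all genes tested were 3.31% lower and 3.23% higher, the latter close to 1 of 25. The other 20 members, ATF4 itself among them, were not called, and the list's median was −0.18.

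Neuronal and synaptic genes had 5 of 25 members lower and 3 higher, against 3.31% and 3.23% of all genes tested. The same shares apply to every list below. For lists of this size, 1 call in a direction is close to them. STMN3, which encodes a microtubule regulator, had 0.0592 and 0.147 CPM in KO1.5 and 2.69 and 1.96 CPM in KO1.4 (−4.49 ± 0.51, edgeR adjusted p = 1.25e-05). The other 6 libraries, at 0.214 to 0.903 CPM, lay between the lines. SCG2, a granule protein, was lower (−1.05 ± 0.14), and the synaptic adhesion gene NLGN4X higher (1.81 ± 0.34). Of 34 axon guidance genes, 4 were lower, among them SEMA3B (−1.13 ± 0.14) and NRP1 (−0.54 ± 0.11), and EPHA5 was higher (1.22 ± 0.22). Further calls were among hypoxia and glycolysis genes (3 of 25 lower, VEGFA at −0.73 ± 0.13), cytokines and NF-kB targets (2 of 23 higher and 4 lower, PTGS2 at −1.33 ± 0.23), cholesterol genes (2 of 23 higher, 1 lower) and NRF2 genes (3 of 26 higher, 2 lower). Cadherins had 1 of 23 higher (CELSR1) and 2 lower, receptor tyrosine phosphatases 2 of 15 higher and 2 lower, with PTPRM at −0.71 ± 0.11 and PTPRU at −0.81 ± 0.16, and potassium channels 1 of 13 each way. Of 16 AP-1 factor genes, 1 (MAFK) was lower, and CTAG2 was the 1 of 13 cancer-testis antigen genes that was called. No member of the HOX (30 tested, 1 at an unadjusted p under 0.05) or mitochondrially encoded mRNA (13 tested, 0 at that level) lists was called by edgeR's test or the DESeq2 Wald test. Of the 97 genes set by the naming rule or named after their values were seen, 42 lost their call with all 10 SKmel147 libraries in the fit. Among those with values given here, they include CIITA, HLA-DQB1, FAS, RRM2B, NGFR, TFAP2A, COL18A1, ADAM12, DDIT4, PHGDH, EGR1, SEMA3B, VEGFA and PTPRU, with edgeR adjusted p values from 0.0533 (HLA-DQB1) to 0.353 (COL18A1).

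The called genes were unevenly spread over the chromosomes. Chromosomes 8, 9 and 19 held 396 of the 1124 called genes (35.2%), against 2047 of the 17198 genes tested (11.9%). On chromosome 8, 28.2% of 500 tested genes were called, 78 higher and 63 lower. On chromosome 9, 14.7% of 604 were called, 84 higher and 5 lower, and on chromosome 19, 17.6% of 943, 53 higher and 113 lower. Every other chromosome had between 3.21% and 8.78% of its tested genes called. The median log2 fold change was 0.143 on chromosome 8, 0.207 on chromosome 9 and −0.173 on chromosome 19. Without KO1.5 R2 it was 0.071 on chromosome 8 and −0.276 on chromosome 19, and without KO1.5 R1 it was −0.074 on chromosome 19. Genes lower in KO1.5 had a higher GC content (median 54.4%, against 46.4% for those higher), and across 14608 genes the fold change had a Spearman's rho of −0.262 with GC content. The R2 minus R1 difference within each of the 5 lines gave rho values from −0.525 to 0.665 on the same genes. After a correction for GC content and length the 3 medians were 0.147, 0.249 and −0.071.

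Along the gene order, the difference came in runs. A running median over 25 neighbouring tested genes stayed beyond 0.25 in size over 10 blocks, which held 966 tested genes (5.62%) and 318 of the called genes (28.3%). The blocks were chosen by the fold changes themselves, so their medians only describe them. On chromosome 8, 126 genes from MICU3 to RNF170 had a median of −0.43, with 50 called lower and none higher. SLC7A2, MTUS1, STC1 and DUSP4 lie there. Farther along, 78 genes from CEBPD to ZFHX4 had a median of 0.36 and 148 genes from ZFAND1 to LRRC6 one of 0.38, with 49 called higher and 1 lower in the ZFAND1 block. In all 3 blocks both KO1.5 libraries lay beyond every other library. Relative to the mean of the 6 libraries of KO3.20, NT and Par, the median differences in the MICU3 block were −0.27 and −0.30 in KO1.5 and 0.08 and 0.10 in KO1.4. In the ZFAND1 block they were 0.46 and 0.32 in KO1.5 and −0.02 and 0.06 in KO1.4.

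On chromosome 9 KO1.4 was the line that departed. From ANKRD20A3 to ZNF484, 84 genes had a median log2 fold change of 0.34, and from ALG2 to RPL12, which includes STOM, 128 genes had 0.33. In the second of these blocks the median differences from the other lines were 0.06 and 0.02 in KO1.5 and −0.30 and −0.26 in KO1.4. Chromosome 19 held 4 blocks. The sharpest, 28 genes from ZNF506 to RPS27P29, had a median of 1.04, and its 14 called genes, all higher in KO1.5, were zinc finger genes such as ZNF91, ZNF43 and ZNF486. ZNF91 had a log2 fold change of 1.47 and ZNF486 one of 4.09. The median differences of this block from the other lines were 0.03 and −0.16 in KO1.5 and −0.86 and −0.78 in KO1.4. Longer stretches of chromosome 19 were lower in KO1.5, with a median of −0.41 over 252 genes from PSMD8 to ETFB, where EMC10 and TGFB1 lie, −0.32 over 36 genes from GPI to THAP8 and −0.55 over 54 genes from CACNG8 to AC024580.1. In the PSMD8 block, KO1.5 was at −0.35 and −0.20, but NT R1 was at −0.22 and Par R2 at 0.19, so other libraries were spread over a like range. The GPI block had KO1.5 at −0.20 and −0.18 and NT R1 at −0.19. The CACNG8 block had KO1.5 at −0.45 and −0.17, NT R1 at −0.25 and Par R2 at 0.25. After the GC and length correction the medians were −0.30 (PSMD8), −0.32 (GPI) and −0.39 (CACNG8). On chromosome 6, 32 genes from PPT2-EGFL8 to HLA-DPA1 had a median of −0.75, and most of the 16 called there were HLA class II genes. No DNA was measured, so the dose of a chromosome segment and the RNA made per copy cannot be told apart.

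**Figure D4:**
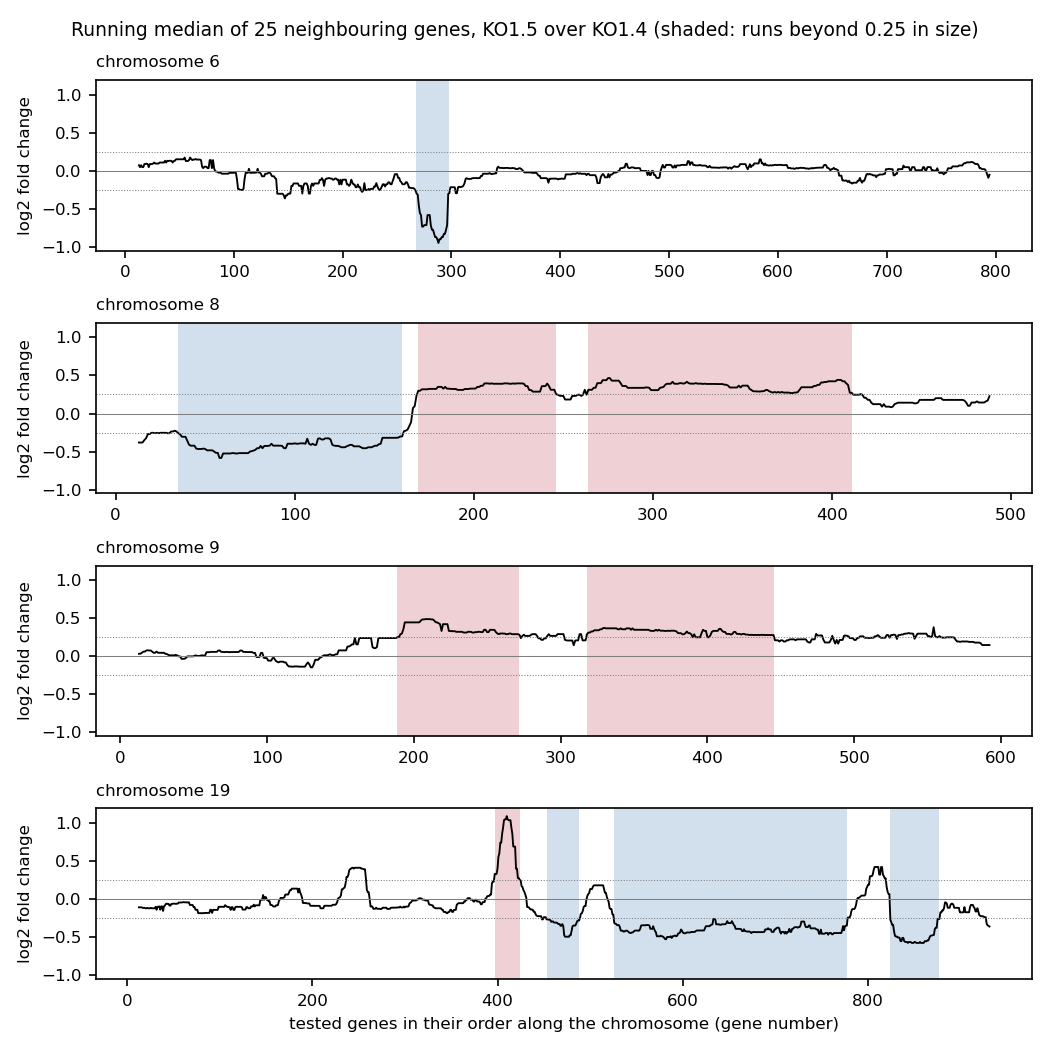
Running median of the log2 fold change of KO1.5 over KO1.4 across 25 neighbouring tested genes on chromosomes 6, 8, 9 and 19 (horizontal: tested genes in order). Shaded blocks lie beyond 0.25 in size, red where KO1.5 was higher and blue where it was lower. Chromosome 8 changes from a block at −0.43 to blocks at 0.36 and 0.38.

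Zinc finger genes on chromosome 19, a set formed after the values were seen, accounted for 42 of the 53 genes called higher on that chromosome, while 5 were lower, among 228 tested. Zinc finger genes elsewhere had 10 of 241 higher and 5 lower, against 3.23% and 3.31% of all genes tested. The whole sets had medians of 0.05 and 0.04, so the calls sat in some of the genes and not in the set at large.

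**Figure D5:**
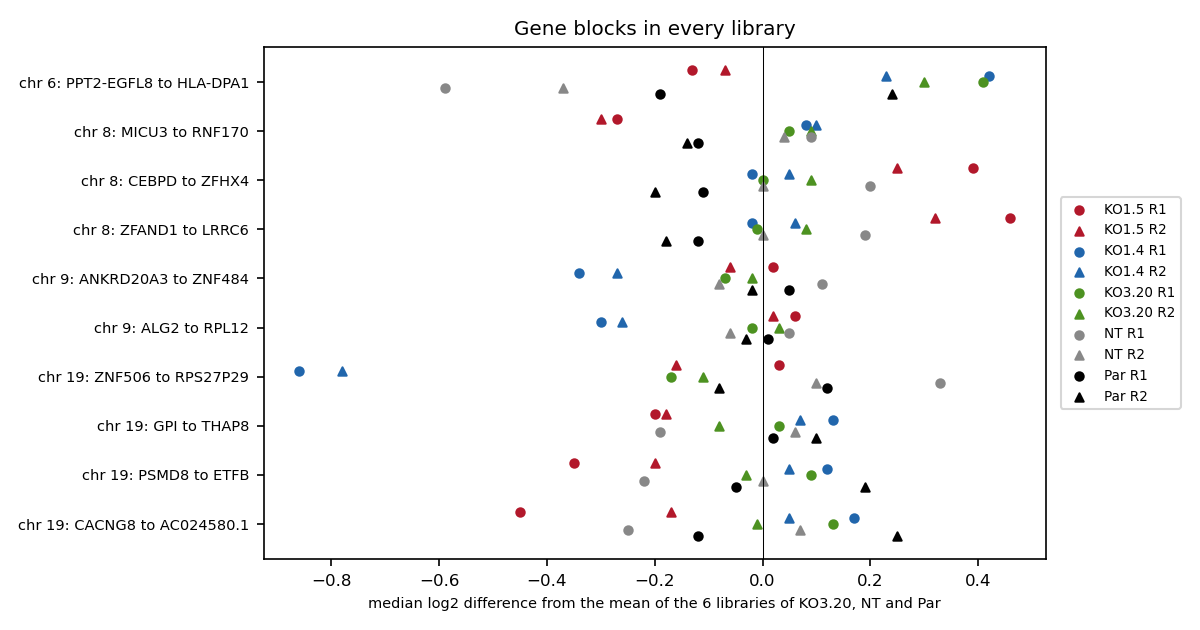
Median log2 difference of each library from the mean of the 6 libraries of KO3.20, NT and Par, for the 10 blocks of neighbouring genes (circles R1, triangles R2). KO1.5 departs on chromosome 8, KO1.4 departs on chromosome 9 and in the ZNF506 block of chromosome 19, and NT and Par libraries spread widely in the chromosome 6 block.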

How the data were processed

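The authors deposited raw read counts per gene symbol. Per the submitters' processing notes they used STAR 2.6.0 and featureCounts, with the builds GRCh37 and hg19 named. How multimapping reads and strand were handled is not given in the sources used here, so near-identical, overlapping or antisense genes are uncertain. The table lists 56629 symbols in 10 SKmel147 libraries. The 501mel libraries were not used here.

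The test was edgeR 4.0.16 (R 4.3.3) on the 4 libraries, with TMM scaling, filterByExpr by line, the quasi-likelihood test and Benjamini-Hochberg adjustment over 17198 genes. It had 2 residual degrees of freedom, with the spread moderated across genes. The libraries of a line differed by more than counting error. GENCODE 29 gave chromosome, order, GC content and length for 35321 symbols, 1331 of them through an older symbol, and no coordinate of it is printed. Named genes were the 12 largest differences per direction among called genes (mean log2 CPM 3 or more), up to 3 called members per list by smallest p (other called members are named after their values were seen), genes at 0 in 1 line and at 5 CPM or more in the other (none) and ARID2. The comparison, the 31 pathway lists and the 6 marker lists were chosen with earlier results of these data known. The lists were not tested as sets. Alternatives were DESeq2 1.42.0 size factors and its Wald test, no filter, a replicate block, a fit of all 10 libraries, each library left out and a GC and length correction by loess.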

Additional observations from a re-analysis of the deposited data

How the results depend on the processing

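The 1124 calls (555 higher, 569 lower) became 399 with all 10 SKmel147 libraries in the fit (217 higher, 182 lower), 1728 after the GC and length correction (948 higher) and 390 past 2-fold (202 higher, 188 lower). Leaving out 1 library each gave 428 to 3029 calls, 204 to 1367 higher and 224 to 1662 lower. Without chromosomes 8, 9 and 19 they were 728 (340 higher), an alternative chosen after seeing the data. DESeq2 size factors gave 1166, the DESeq2 Wald test 946 and no low-count filter 1411. The replicate block gave 853 calls, 816 of them shared, and 1498 together with the GC correction. R1 and R2 share only a number, with a correlation of −0.24 between the R2 minus R1 differences of the lines. The crossed pairing, added after seeing the data, gave 2619 calls (1241 higher, 1378 lower). Calls shared with the 1124 had the same sign in each setting.

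With all 10 libraries in the fit, the counts of other pairs were 348 for KO3.20 against KO1.4, 1579 for KO1.5 against NT, 2629 for KO1.5 against Par and 1702 for NT against Par, 1 class II gene was lower and 2 p53 targets were higher. With 1 library left out, p53 targets higher numbered 5 to 14. With 1 library left out the chromosome medians were 0.071 (without KO1.5 R2) to 0.147 for chromosome 8, 0.174 to 0.255 for chromosome 9 and −0.276 (without KO1.5 R2) to −0.074 (without KO1.5 R1) for chromosome 19, and the GC correction gave 0.249 for chromosome 9. With 1 library left out, the log2 fold change was −0.41 (without KO1.5 R1) to 3.10 for PRRG3, −0.45 to 2.6 for AC009501.4, −0.26 to 2.18 for COL6A3 and −0.48 to 2.90 for RP11-458N5.1. Of 1163 comparisons of a named gene with an alternative, 1159 kept the direction and 1037 also their side of the threshold. Of 97 named genes, 42 lost their call with all 10 libraries in the fit, 25 without KO1.4 R1 and 17 without KO1.4 R2. Where a cause is not part of the setting itself, the cause was not tested. With 2 libraries per line, small differences such as that of ARID2 are not resolved.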
